A study of Mus musculus with 6 samples.

Results

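Messenger RNA of the pathway that runs from Toll-like receptors to the transcription factor NF-kB was measured by RNA sequencing in unstimulated mouse bone marrow-derived macrophages. The pathway was represented by 42 genes chosen by symbol from the 45193 genes of the deposited count table, and all 42 were found and expressed highly enough to be tested. They comprise 10 receptors and co-receptors, 20 adaptors, kinases and ubiquitin ligases, 5 NF-kB subunits, 6 feedback inhibitors and Tnf, a cytokine gene at the output. The knockout group (RXRKO) held 3 libraries of cells labelled RXRafl/flLysMCre RXRb-/-. Its loxP-flanked Rxra alleles are cut by Cre recombinase from the lysozyme M locus (Lyz2), which is active in myeloid cells, whereas its Rxrb alleles are inactive in every cell. The WT group held 3 libraries of wild-type cells. Both groups carry the C57BL/6J background in the labels and came from femur and tibia marrow. Marrow cells of both were grown for 6 days in medium with 20% serum and 30% medium conditioned by L929 cells, a fibroblast line that secretes the macrophage growth factor CSF-1. From the evening of day 5 the medium was serum-free, and all cells received the solvent DMSO for 3 hours, so no Toll-like receptor ligand was added to any library. Animal age and sex are not given in the labels, and nothing says which mice the 3 biological replicates came from, so every p-value refers to the spread among these libraries, which may be technical.

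Toll-like receptors (TLRs) recognise microbial lipids, proteins and nucleic acids, some at the cell surface and some inside endosomes. Through the adaptors MyD88 and TRIF they recruit IRAK kinases and TRAF ubiquitin ligases, which activate the TAK1 and IkB kinase complexes. IkB proteins hold NF-kB dimers in the cytoplasm of resting cells and are destroyed once the kinase acts, and the freed dimers switch on cytokine genes together with the genes of the inhibitors that end the response. The retinoid X receptors encoded by Rxra and Rxrb are nuclear receptors and act as partners in dimers with others of their family, several of which are known to restrain inflammatory genes in macrophages.

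Total counts ranged from 17250051 to 25091019 reads in RXRKO libraries and from 7880320 to 14957253 reads in WT libraries. The RXRKO mean was 1.87 times the WT mean, and a two-sided exact permutation test gave p = 0.1, the smallest that 3 against 3 libraries allow. Levels are given as CPM, that is, counts relative to library size with TMM factors, and levels of different genes are compared only after division by exon length (CPM per kb). Exon length covers all bases in any annotated exon of a gene, not those of the transcripts in use. Orders and ratios between genes therefore depend on the annotation. Rxrb, which encodes RXR beta, had 8.14, 7.98 and 11.7 CPM in RXRKO cells, against 64.7, 66.9 and 68.4 CPM in WT cells. Rxra had 109 CPM in RXRKO cells and 104 CPM in WT cells, and a count over the whole gene does not check the deletion of floxed exons. Lyz2, the locus that carries Cre, had 28.4 CPM in RXRKO cells and 15258 CPM in WT cells. The labels name Cre in the RXRKO group alone. For every gene, Cre and the low Lyz2 thus cannot be told apart from the loss of RXR. Xist, the RNA of the inactive X chromosome, had 209 to 267 CPM in RXRKO libraries and no read in WT libraries. The Y-linked Ddx3y had 49.7 to 55.4 CPM in RXRKO libraries and 101 to 112 CPM in WT libraries, so sex composition and genotype cannot be told apart.

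The macrophage label was checked against marker genes. All 8 macrophage markers were expressed, and their summed level was 6853 to 7971 CPM in RXRKO cells and 6277 to 7291 CPM in WT cells. Csf1r, the receptor of CSF-1 and the most abundant of them, had 2914 CPM in RXRKO cells and 2216 CPM in WT cells. The 8 macrophage markers had no common direction: 3 were called higher and 2 lower, and 5 log2 fold changes were negative. Over all tested genes 19.4% were called. The 10 neutrophil and granulocyte precursor markers summed to 1043 to 1171 CPM in RXRKO cells and 1125 to 1277 CPM in WT cells, with 1 called higher and 3 called lower. Ngp was the most abundant among them in WT cells, with 313 CPM in RXRKO cells and 377 CPM in WT cells. The 4 monocyte markers, led by Chil3 and with 2 called lower, summed to 134 to 177 CPM in RXRKO cells and 156 to 187 CPM in WT cells. Their part in the results was not tested, and in these bulk samples fewer cells of a type and less RNA per cell cannot be told apart. Dendritic and B cells also express TLR genes. The B cell markers summed to 1.91 to 3.49 CPM in RXRKO cells and 5.22 to 6.40 CPM in WT cells, most of it Cd79b. Of the plasmacytoid dendritic markers, Siglech reached 0.272 CPM in RXRKO cells and 0.208 CPM in WT cells, Klk1 had no read, and Tcf4, which is not specific to these cells, carried nearly all of the sum. The lists of conventional dendritic cells, T and NK cells, mast cells and basophils, and erythroid cells, led by Itgae, Klrb1c, Cpa3 and Epor, each summed to at most 3.15 CPM in RXRKO cells and 2.35 CPM in WT cells. Gzma and the haemoglobin genes had no read in any library. Stromal markers, led by Col1a1, reached 9.94 CPM in RXRKO cells and 9.80 CPM in WT cells.

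Most genes of the pathway did not pass the test between the genotypes, and those that did pointed in opposite directions within each class of receptor. Cd14, the lipopolysaccharide co-receptor, was 2.12 times as high in RXRKO cells as in WT cells. The endosomal DNA receptor gene Tlr9, the kinase gene Irak2, the IkB kinase scaffold gene Ikbkg and the c-Rel gene Rel were also higher in RXRKO cells. Tlr2, Tlr8, the IkB genes Nfkbia and Nfkbiz, and Tnf were lower. In numbers, 5 of the 42 genes were called higher and 5 lower in RXRKO cells at a Benjamini-Hochberg adjusted p under 0.05 in the edgeR quasi-likelihood test, and 32 were not called. That is 23.8% of the pathway, where 19.4% of all 12011 tested genes were called (9.77% higher and 9.61% lower), and 22.3% of the 7635 tested genes within the pathway's range of abundance. The share called is thus near the background. In 17 of the 42 genes the 3 RXRKO and the 3 WT values did not overlap, 10 of them higher and 7 lower in RXRKO cells, against 36.9% of all tested genes (19.0% higher and 17.9% lower). The differences were small: 39 of the 42 had an absolute log2 fold change under 0.5, and Cd14 alone exceeded 1. The median log2 fold change was 0.01 for the pathway and -0.0048 for all tested genes, and the median absolute value was 0.12 for the pathway and 0.20 for all tested genes. The SEs of the 42 lay between 0.0745 and 0.155 on the log2 scale.

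**Figure D1:**
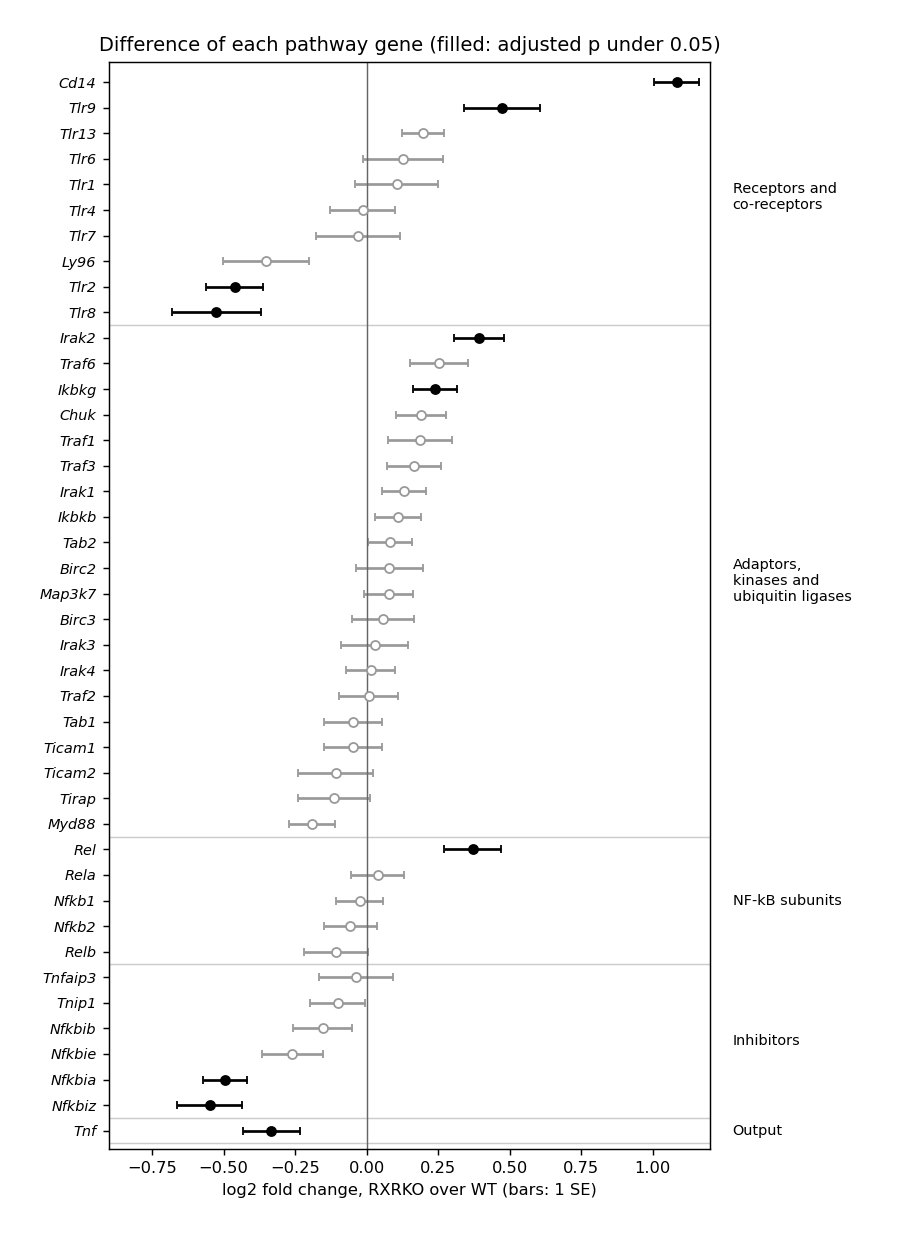
Log2 fold change of RXRKO over WT for each of the 42 genes, grouped by step of the pathway, with bars of 1 SE and filled points for genes with an adjusted p under 0.05 (edgeR quasi-likelihood test). Cd14 lies at 1.08, 39 genes lie within 0.5 of 0, and all 6 feedback inhibitors lie below 0.

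**Figure D2:**
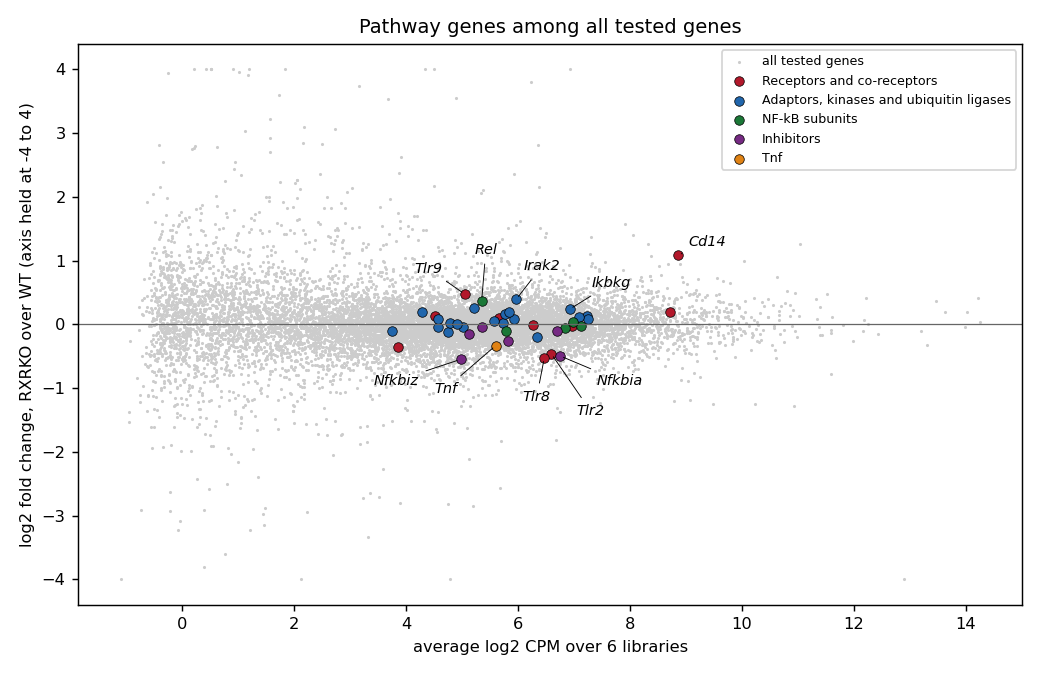
Log2 fold change of RXRKO over WT against average log2 CPM for the 12011 tested genes (grey) with the 42 pathway genes in colour by step and the called genes named, the vertical axis held at 4 on either side. The pathway genes lie among the other genes of their abundance, and 10 of the 42 pass the test.

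The response of several of these genes to NF-kB itself is a known part of the feedback, so the DNA just upstream of their starts was read from RefSeq promoters of the build GRCm38.p6. Windows from 250 bases before to 50 bases after the start were held for 32 of the 42 genes, 45 windows in all. Windows of the same gene can overlap, as those of Irak1 do, and each was counted. The consensus decamer named kappaB was searched on both strands, and overlapping matches were each kept. It was found in 13 of the 45 windows (28.9%), in 10 of the 32 genes, and in 2779 of all 32851 promoter windows of the same length (8.46%). Of the 8 called genes with a window, 3 held a match: Nfkbia, Tlr2 and Rel. The called genes Cd14 and Nfkbiz had no window. Of the 24 genes with a window that were not called, 7 held one: Tnfaip3, Tnip1, Nfkbie, Traf3, Map3k7, Nfkb2 and Irak1. A match is a description of the letters and not a bound site. The upstream bases of the 3 called genes are shown because they carry the kappaB letters of a receptor, a subunit and an inhibitor whose levels differed. They are given from 5′ to 3′ on the gene's own strand, the minus strand in all 3, with kappaB matches in capitals, at chr12:55492648-55492897 for Nfkbia, chr3:83841768-83841858 for Tlr2 and chr11:23770971-23771219 for Rel:
Nfkbia: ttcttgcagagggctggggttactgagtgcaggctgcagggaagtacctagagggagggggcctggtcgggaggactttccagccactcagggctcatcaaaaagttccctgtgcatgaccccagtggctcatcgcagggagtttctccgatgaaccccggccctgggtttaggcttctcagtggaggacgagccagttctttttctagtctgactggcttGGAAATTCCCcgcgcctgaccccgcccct
Tlr2: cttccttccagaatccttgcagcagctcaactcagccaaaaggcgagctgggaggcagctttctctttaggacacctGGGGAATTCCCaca
Rel: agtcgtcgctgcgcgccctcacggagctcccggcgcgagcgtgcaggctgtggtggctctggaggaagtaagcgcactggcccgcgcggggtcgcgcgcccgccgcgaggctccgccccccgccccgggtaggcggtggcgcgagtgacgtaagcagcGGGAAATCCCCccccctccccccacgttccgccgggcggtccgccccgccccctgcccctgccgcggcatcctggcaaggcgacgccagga
The Nfkbia match begins 29 bases before the start. In Tlr2 a pair of overlapping matches begins 173 and 172 bases before the RefSeq start, and the stretch shown ends where the longer GENCODE transcript begins. A further Tlr2 match, at 8 bases before the RefSeq start, lies outside that stretch. The Rel matches, also overlapping, begin 92 and 91 bases before the start. Capitals thus stand in a gene that was higher (Rel) and in genes that were lower (Nfkbia, Tlr2) in RXRKO cells. The hexamer AGGTCA, to which nuclear receptors bind, was searched in the same way and stood in 5 of the 45 windows (11.1%) and in 16.3% of all promoter windows. Tlr2, Tlr9 and Irak2 were the called genes that held it.

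Among the 10 receptors and co-receptors, 2 were called higher, 2 lower and 6 were not called. That is 40% called, against 19.4% of all tested genes. The changes at the cell surface and in endosomes had no common direction. Cd14 (ENSMUSG00000051439, chromosome 18, 36725067 to 36726798 in GRCm38, minus strand) hands lipopolysaccharide to the TLR4 complex. It had 643, 651 and 589 CPM in RXRKO cells, against 308, 293 and 287 CPM in WT cells. Every RXRKO library was thus well above every WT library. The log2 fold change was 1.08 (SE 0.079), with an edgeR adjusted p of 1.6e-06, and Cd14 was called in every alternative fit. The other parts of the lipopolysaccharide receptor were not called. Tlr4, its signalling chain, had 77.8, 87.3 and 63.9 CPM in RXRKO cells, against 77.4, 70.4 and 82.9 CPM in WT cells. The ranges overlapped and the log2 fold change was -0.01 (SE 0.114, edgeR adjusted p = 0.952). Ly96, which encodes the lipopolysaccharide-binding subunit MD-2, had 14.5, 12.4 and 11.6 CPM in RXRKO cells, against 18.2, 12.8 and 17.6 CPM in WT cells. Its ranges overlapped too, with a log2 fold change of -0.35 and an SE of 0.150 (edgeR adjusted p = 0.121). Ly96 was called lower only when WT replicate 2 was left out, at -0.48 and an adjusted p of 0.0355. Per exon length, Cd14 stood at 29.1 ± 2.54 times the level of Ly96 in RXRKO cells and 11.0 ± 2.14 times in WT cells (SD, n = 3 each), with no overlap. This ratio restates the call of Cd14 and carries no test.

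Tlr2 (ENSMUSG00000027995, chromosome 3, 83836272 to 83841767, minus strand) encodes the receptor of bacterial lipoproteins, whose upstream bases are printed above. It had 81.7, 85.8 and 76.3 CPM in RXRKO cells, against 100.3, 107 and 128 CPM in WT cells. All RXRKO values were lower than all WT values, with a log2 fold change of -0.46 (SE 0.100) and an edgeR adjusted p of 0.0062. The call held in every alternative fit, with adjusted p up to 0.034. Its partners Tlr1 and Tlr6, which pair with TLR2 on the cell surface, were not called. Tlr1 had 55.3, 59.1 and 41.3 CPM in RXRKO cells, against 50.4, 39.0 and 54.6 CPM in WT cells, and the ranges overlapped. Tlr6 had 25.1, 26.3 and 19.8 CPM in RXRKO cells, against 18.4, 22.3 and 24.3 CPM in WT cells, again with overlap. The log2 fold changes were 0.11 for Tlr1 (edgeR adjusted p = 0.661) and 0.13 for Tlr6 (edgeR adjusted p = 0.571). Tlr1 and Tlr6 are close copies: 340 stretches of 75 bases, the length of a read, are identical between them, or 10.3% of those of Tlr1, so their counts are uncertain. Per exon length the ratio of Tlr2 to Tlr4 was 1.98 ± 0.199 in RXRKO cells and 2.68 ± 0.249 in WT cells (SD, n = 3 each), with no overlap. This ratio restates the call of Tlr2 and carries no test.

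The endosomal receptors sense nucleic acids. Tlr9 (ENSMUSG00000045322, chromosome 9, 106222598 to 106226883, plus strand), the receptor of unmethylated CpG DNA, had 37.2, 40.0 and 36.5 CPM in RXRKO cells. In WT cells Tlr9 had 21.2, 28.4 and 31.9 CPM, all lower than in RXRKO cells. The log2 fold change was 0.47 (SE 0.133, edgeR adjusted p = 0.0253). WT replicate 1 was the lowest, and without it the log2 fold change was 0.32 with an adjusted p of 0.0981, while leaving out RXRKO replicate 1 or 2 also ended the call. Tlr8 (ENSMUSG00000040522, X chromosome, 167242696 to 167264329, minus strand), in humans a sensor of RNA breakdown products, was lower in RXRKO cells. It had 73.3, 84.3 and 60.1 CPM in RXRKO cells, against 96.8, 85.8 and 129.8 CPM in WT cells, and RXRKO replicate 2 lay just under WT replicate 2. The log2 fold change was -0.53 (SE 0.155, edgeR adjusted p = 0.0355), or -0.34 without WT replicate 3, the highest, with an adjusted p of 0.0914. The call also ended without WT replicate 1, RXRKO replicate 1 or RXRKO replicate 3, and with offsets for gene length and GC content. Tlr8 and Ikbkg were the called genes on the X chromosome. For them, as for every other gene, sex composition and genotype cannot be told apart. Per exon length the ratio of Tlr9 to Tlr8 was 0.546 ± 0.0707 in RXRKO cells and 0.273 ± 0.0607 in WT cells (SD, n = 3 each). This ratio sets a gene called higher over a gene called lower and carries no test.

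Tlr7, a receptor of single-stranded RNA next to Tlr8 on the X chromosome, had 127, 145 and 97.3 CPM in RXRKO cells, against 135, 102 and 139 CPM in WT cells. The ranges overlapped, and the log2 fold change was -0.03 (SE 0.147, edgeR adjusted p = 0.916). Tlr13, which in mice recognises bacterial ribosomal RNA, had 432, 464 and 441 CPM in RXRKO cells, against 379.9, 386 and 400.2 CPM in WT cells. Its groups did not overlap, but the difference of 0.20 (SE 0.0745) missed the threshold, with an edgeR adjusted p of 0.0836. DESeq2, another count model, gave Tlr13 an adjusted p of 0.0438, and the offsets for gene length and GC content gave 0.0209.

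In level per exon length, Tlr13 was far above the other TLR genes in both genotypes, at 104 ± 3.77 CPM per kb in RXRKO cells and 90.3 ± 2.42 CPM per kb in WT cells (SD, n = 3 each). In RXRKO cells Tlr7 (30.1 ± 5.85 CPM per kb) and Tlr2 (27.0 ± 1.57) came next, with overlapping values, then Tlr8 (20.2 ± 3.37). In WT cells Tlr2 (37.1 ± 4.76 CPM per kb), Tlr7 (30.7 ± 4.89) and Tlr8 (29.0 ± 6.38) followed Tlr13. The ranges of neighbours in this WT order overlapped over the libraries, although Tlr2 was above Tlr7 within each WT library. Tlr1 had 15.5 ± 2.80 CPM per kb in RXRKO cells and 14.3 ± 2.41 in WT cells, and Tlr4 had 13.7 ± 2.11 in RXRKO cells and 13.8 ± 1.13 in WT cells, so these neighbours did not separate in either genotype. Tlr9 had 10.9 ± 0.532 CPM per kb in RXRKO cells and 7.81 ± 1.57 in WT cells, and Tlr6 was lowest, at 6.37 ± 0.931 in RXRKO cells and 5.81 ± 0.809 in WT cells. As a share of the summed level of the 8 TLR genes, Tlr13 made up 45.7% in RXRKO cells and 39.6% in WT cells. Tlr2 made up 11.9% in RXRKO cells and 16.2% in WT cells. The TLR genes also moved within a group: 7 of the 8 were lowest in RXRKO replicate 3 among the RXRKO libraries, as were 15 of the other 34 pathway genes. In WT replicate 2, Tlr1, Tlr4, Tlr7 and Tlr8 were the lowest of the WT libraries. Among tested genes at least as abundant as the lowest pathway gene, 45.8% were lowest in RXRKO replicate 3 and 35.6% in WT replicate 2. In RXRKO replicate 3 genes in the lowest quartile of GC content stood at a median of -0.06 and those in the highest at 0.03 on the log2 scale relative to the other RXRKO libraries. GC content of the TLR genes runs from 39.4% to 56.2%, and its part in this pattern was not tested.

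**Figure D3:**
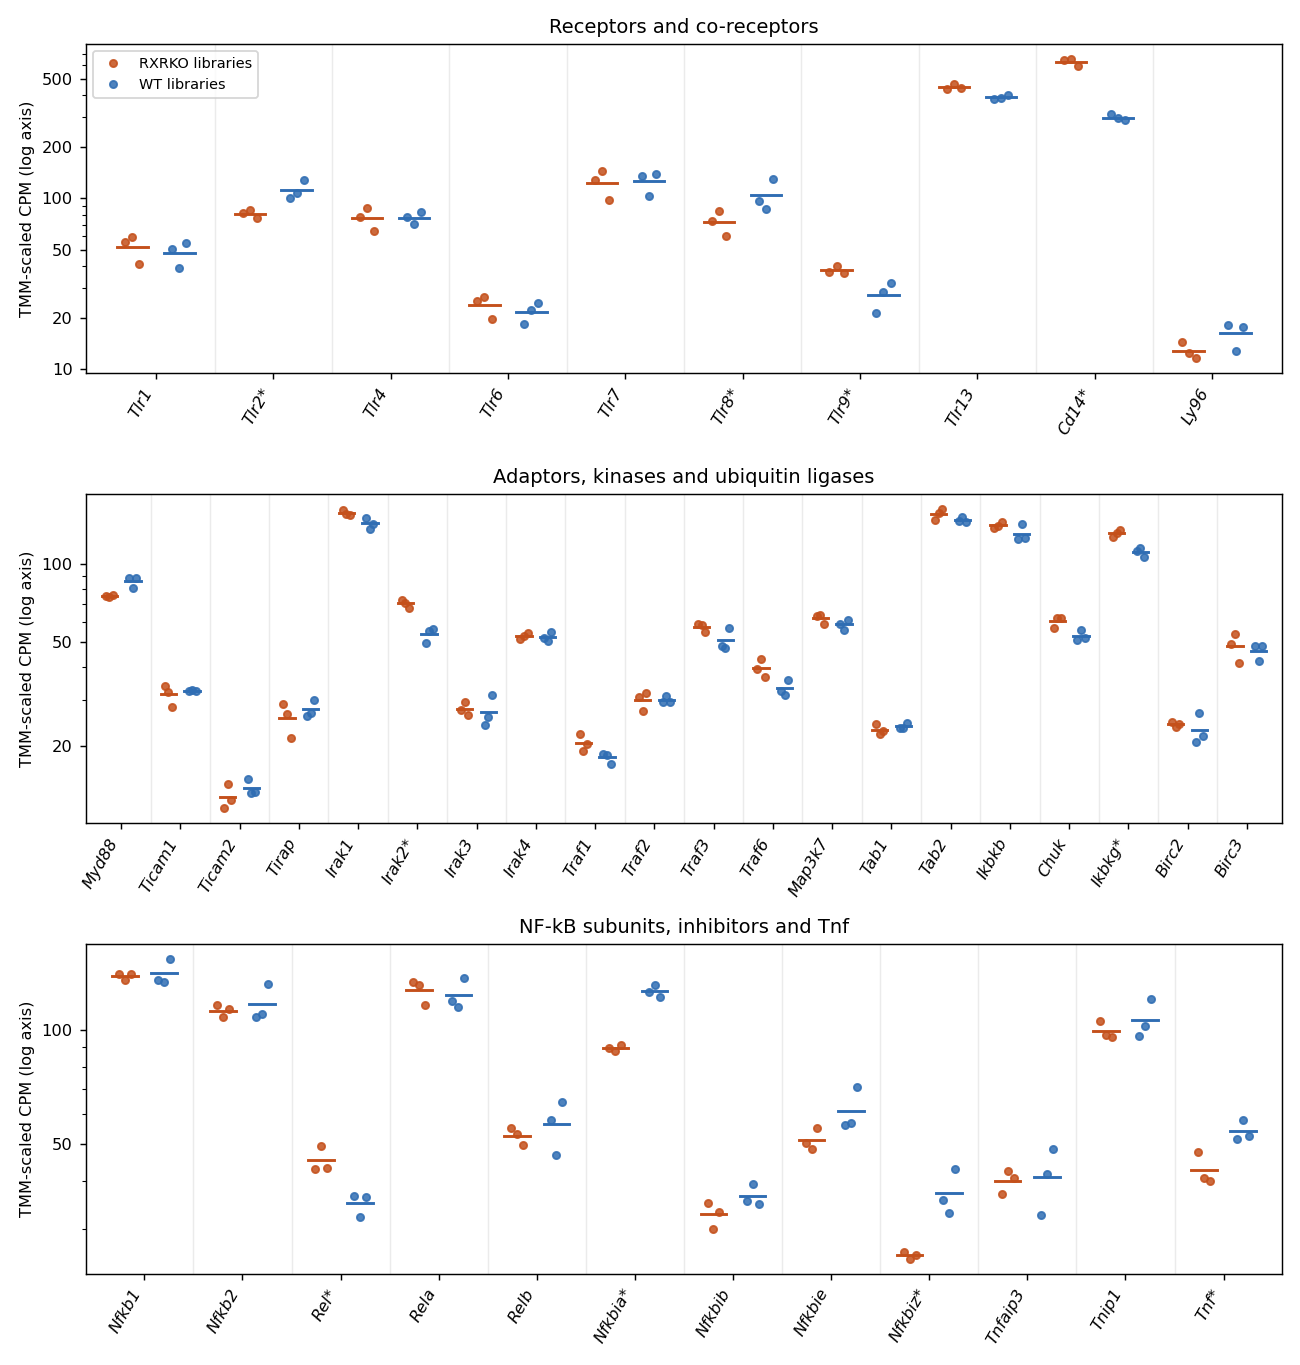
Level of each of the 42 genes in CPM on a log axis, in 3 panels by step of the pathway, with RXRKO left of WT, points for the 3 libraries of each genotype, lines for the mean and a star for called genes. Cd14 lies between 589 and 651 CPM in RXRKO cells and between 287 and 308 CPM in WT cells, while the values of Tlr4 overlap.

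Of the 20 genes of the adaptor and kinase step, Irak2 and Ikbkg were called higher, none lower and 18 were not called. That is 10% called, below the 19.4% of all tested genes. The median log2 fold change was 0.08, against -0.0048 for all tested genes. Of the 20 values 15 were positive, as were 5916 of the 12011 over all tested genes. Irak2 (ENSMUSG00000060477, chromosome 6, 113638467 to 113695026, plus strand), whose product sustains signalling after MyD88 recruits IRAK4, had 72.8, 70.7 and 67.6 CPM in RXRKO cells. In WT cells it had 49.6, 55.0 and 56.0 CPM, all lower. The log2 fold change was 0.39 (SE 0.0876, edgeR adjusted p = 0.0073), and without RXRKO replicate 1 the adjusted p was 0.0504. The other IRAK genes were not called. Irak1, a kinase that relays the signal to TRAF6, had 161, 155 and 153 CPM in RXRKO cells, against 149.5, 136 and 142 CPM in WT cells. Its groups did not overlap, but the log2 fold change was only 0.13 (SE 0.0769, edgeR adjusted p = 0.263). Irak4, the first kinase of the chain, differed by 0.01 (SE 0.0853), and Irak3, a brake on the other IRAKs, by 0.03 (SE 0.118).

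None of the 4 adaptor genes was called. All had negative log2 fold changes, as did 6095 of all 12011 tested genes. Myd88, the adaptor of most TLRs, had 74.9, 74.3 and 76.1 CPM in RXRKO cells, against 88.4, 80.9 and 87.8 CPM in WT cells. All RXRKO values were lower, yet the log2 fold change of -0.19 (SE 0.0809) was not called (edgeR adjusted p = 0.12). Myd88 shares 290 of its 2576 exon bases with Acaa1a on the other strand, and Tirap, Irak3, Irak4, Nfkb2 and Nfkbib also overlap genes with reads there, so these counts are uncertain. Ticam1, which encodes TRIF, differed by -0.05 (SE 0.102), Ticam2, the bridging adaptor TRAM, by -0.11 (SE 0.132), and Tirap, the bridging adaptor of MyD88, by -0.11 (SE 0.126). Ticam2 shares 838 of its 5792 exon bases with Tmed7 on the same strand, so its count is uncertain.

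None of the TRAF genes or of the genes of the TAK1 complex was called. Traf6, the ubiquitin ligase that activates TAK1, had 39.3, 43.2 and 36.8 CPM in RXRKO cells, against 32.6, 31.4 and 35.8 CPM in WT cells. The groups did not overlap, and the log2 fold change was 0.25 (SE 0.102, edgeR adjusted p = 0.101). Traf3, which acts in the interferon branch, differed by 0.16 (SE 0.0945), Traf1 by 0.19 (SE 0.112) and Traf2 by 0.01 (SE 0.103). Traf1 and Traf2 lie 7.23 Mb and 2.19 Mb from Rxra. Map3k7, which encodes TAK1, differed by 0.08 (SE 0.0861), and the genes of its partners Tab1 and Tab2 by -0.05 (SE 0.102) and 0.08 (SE 0.0768). Birc2 and Birc3, the ubiquitin ligases cIAP1 and cIAP2, differed by 0.08 (SE 0.117) and 0.06 (SE 0.108).

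The IkB kinase complex consists of the kinases encoded by Chuk and Ikbkb and the scaffold NEMO encoded by Ikbkg. Ikbkg (ENSMUSG00000004221, X chromosome, 74393290 to 74453854, plus strand) had 127, 131 and 135 CPM in RXRKO cells, against 112, 115 and 106 CPM in WT cells. The groups did not overlap, and the log2 fold change was 0.24 (SE 0.0773) with an edgeR adjusted p of 0.0469. This call ended when any of the 6 libraries was left out, with RLE size factors, with no filter on low counts and with the length and GC offsets, over which the adjusted p ran up to 0.189. Ikbkg also overlaps G6pdx on the other strand by 418 of its 8110 exon bases, and whether strand was used in counting is not given. Chuk had 56.6, 62.2 and 61.8 CPM in RXRKO cells, against 50.8, 55.8 and 51.9 CPM in WT cells, with a narrow gap between the groups. Its log2 fold change was 0.19 (SE 0.088, edgeR adjusted p = 0.154). Ikbkb differed by 0.11 (SE 0.0812, edgeR adjusted p = 0.379), with overlap.

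Of the 5 NF-kB subunit genes only Rel was called (20%, against 19.4% of all tested genes). The other 4 differed by no more than 0.11 on the log2 scale. Rel (ENSMUSG00000020275, chromosome 11, 23736847 to 23770970, minus strand) encodes c-Rel, a subunit that acts on cytokine genes such as those of the IL-12 family. It had 43.2, 49.7 and 43.5 CPM in RXRKO cells, against 36.5, 32.3 and 36.3 CPM in WT cells. All RXRKO values were higher, with a log2 fold change of 0.37 (SE 0.0999) and an edgeR adjusted p of 0.0205. The call ended without WT replicate 1 or 2 or RXRKO replicate 1 or 2, with adjusted p up to 0.109. Rela, whose product p65 carries most of the activating function, had 134, 131 and 116 CPM in RXRKO cells, against 119, 115 and 137 CPM in WT cells. Nfkb1, the source of p50, had 139.8, 135 and 140.3 CPM in RXRKO cells, against 135, 134 and 153 CPM in WT cells. The ranges of both overlapped, and the log2 fold changes were 0.04 (SE 0.0926) for Rela and -0.02 (SE 0.0815) for Nfkb1. Nfkb2 and Relb, which form the dimer of the alternative pathway, differed by -0.06 (SE 0.0921) and -0.11 (SE 0.113). Per exon length Rela was the most abundant of the 5 in both genotypes, at 41.3 ± 3.08 CPM per kb in RXRKO cells and 40.1 ± 3.83 CPM per kb in WT cells (SD, n = 3 each). Rel made up 6.28% of the summed subunit level in RXRKO cells and 4.89% in WT cells, and the values did not overlap. This share restates the call of Rel and carries no test.

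All 6 feedback inhibitor genes had negative log2 fold changes, as did 6095 of all 12011 tested genes. Their median was -0.21, against -0.0048 for all tested genes. Only Nfkbia and Nfkbiz were called, or 33.3%, against 19.4% of all tested genes. The 22 further brakes described below had a median of 0.15, with 13 positive and 9 negative values. Nfkbia (ENSMUSG00000021025, chromosome 12, 55489410 to 55492647, minus strand) encodes IkB alpha, the inhibitor that is rebuilt fastest after NF-kB is activated. It had 89.4, 87.7 and 91.2 CPM in RXRKO cells, against 126, 131 and 122 CPM in WT cells. The groups were far apart relative to their spread, with a log2 fold change of -0.49 (SE 0.0772) and an edgeR adjusted p of 0.0007. Nfkbia was called in every alternative fit, with adjusted p up to 0.0114. Nfkbiz (ENSMUSG00000035356, chromosome 16, 55811375 to 55838899, minus strand) encodes IkB zeta, a nuclear IkB protein. Nfkbiz is grouped here with the inhibitors, although its product is needed to switch on a subset of secondary response genes such as Il6. It had 26.2, 25.1 and 25.6 CPM in RXRKO cells, against 35.7, 33.0 and 43.0 CPM in WT cells. Again all RXRKO values were lower, with a log2 fold change of -0.55 (SE 0.112) and an edgeR adjusted p of 0.0044. The call held in every alternative fit, with adjusted p up to 0.022.

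The other inhibitors were not called. Nfkbie, which encodes IkB epsilon, had 50.3, 48.6 and 55.2 CPM in RXRKO cells, against 56.2, 56.9 and 70.7 CPM in WT cells. The groups did not overlap, but the gap was narrow and the log2 fold change was -0.26 (SE 0.106, edgeR adjusted p = 0.109). Nfkbib, which encodes IkB beta, differed by -0.15 (SE 0.102, edgeR adjusted p = 0.326), with overlap. Tnfaip3, the gene of the ubiquitin-editing enzyme A20, had 37.0, 42.7 and 40.8 CPM in RXRKO cells, against 32.7, 41.7 and 48.7 CPM in WT cells. The WT values enclosed the RXRKO values, and the log2 fold change was -0.04 (SE 0.130, edgeR adjusted p = 0.879). Tnip1, whose product works with A20, differed by -0.10 (SE 0.0959, edgeR adjusted p = 0.508). Matches to the kappaB consensus, with letters other than those of the Nfkbia match, also stood upstream of Nfkbie, Tnfaip3 and Tnip1, none of which was called.

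Inhibitor and subunit messages were also set against each other within each library. The summed level of Nfkbia, Nfkbib and Nfkbie was 87.6 ± 2.99 CPM per kb in RXRKO cells and 115 ± 2.53 CPM per kb in WT cells (SD, n = 3 each), with no overlap. This sum leaves out Nfkbiz, at 5.11 CPM per kb in RXRKO cells and 7.42 CPM per kb in WT cells. It also leaves out Nfkbid, which was called higher, at 20.0 CPM per kb in RXRKO cells and 14.2 CPM per kb in WT cells. The summed level of the 5 subunit genes was 96.9 ± 3.89 CPM per kb in RXRKO cells and 96.4 ± 9.76 CPM per kb in WT cells, with overlap. The ratio of the summed Nfkbia, Nfkbib and Nfkbie messages to subunit messages was 0.879, 0.863 and 0.972 in RXRKO libraries, against 1.21, 1.33 and 1.07 in WT libraries. No RXRKO ratio reached the lowest WT ratio. The ratio of Nfkbia to Rela was 1.35 ± 0.128 in RXRKO cells and 1.97 ± 0.244 in WT cells. These sums were formed with the values of Nfkbia known and carry no test.

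**Figure D4:**
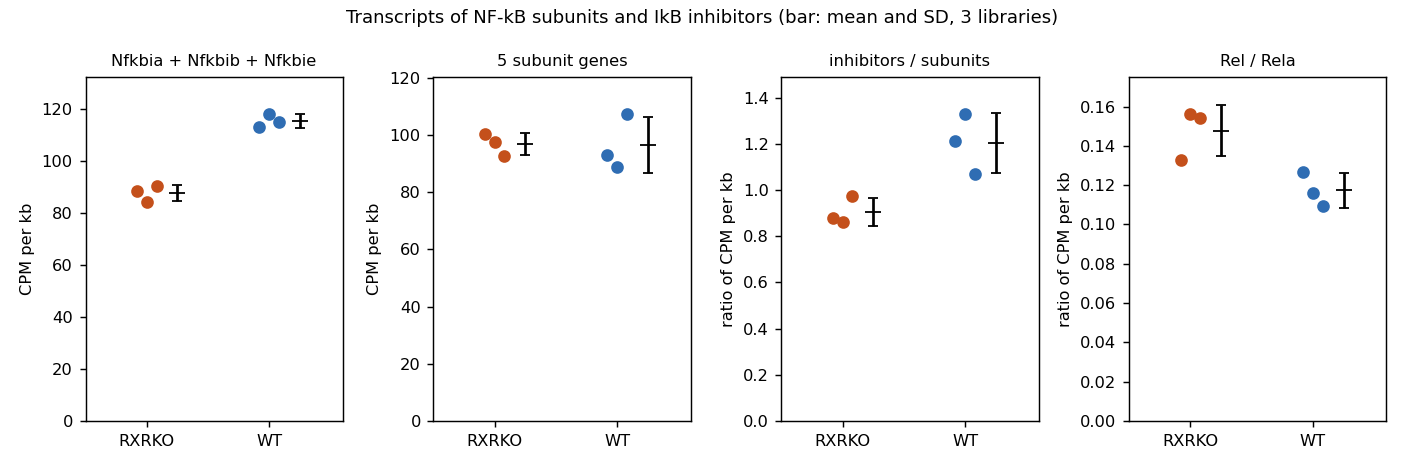
Summed levels in CPM per kb of the IkB genes Nfkbia, Nfkbib and Nfkbie and of the subunit genes. Also shown are the ratios of these IkB to subunit genes and of Rel to Rela. RXRKO is left of WT, with points for libraries and a bar for the mean and SD. The ratio of IkB to subunit genes lies between 0.863 and 0.972 in RXRKO libraries and between 1.07 and 1.33 in WT libraries.

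Tnf (ENSMUSG00000024401, chromosome 17, 35199381 to 35202007, minus strand), the gene of tumour necrosis factor, had 47.8, 40.8 and 40.1 CPM in RXRKO cells, against 51.6, 58.0 and 52.8 CPM in WT cells. All RXRKO values were lower, by -0.33 on the log2 scale with an SE of 0.0995 (edgeR adjusted p = 0.0331). The call ended without WT replicate 1 or 2 or RXRKO replicate 2 or 3, with adjusted p up to 0.119, and with the length and GC offsets, at 0.124. Tnf lies 1.17 Mb from the inactivated Rxrb gene, and Nfkbie 11.5 Mb from it.

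**Figure D5:**
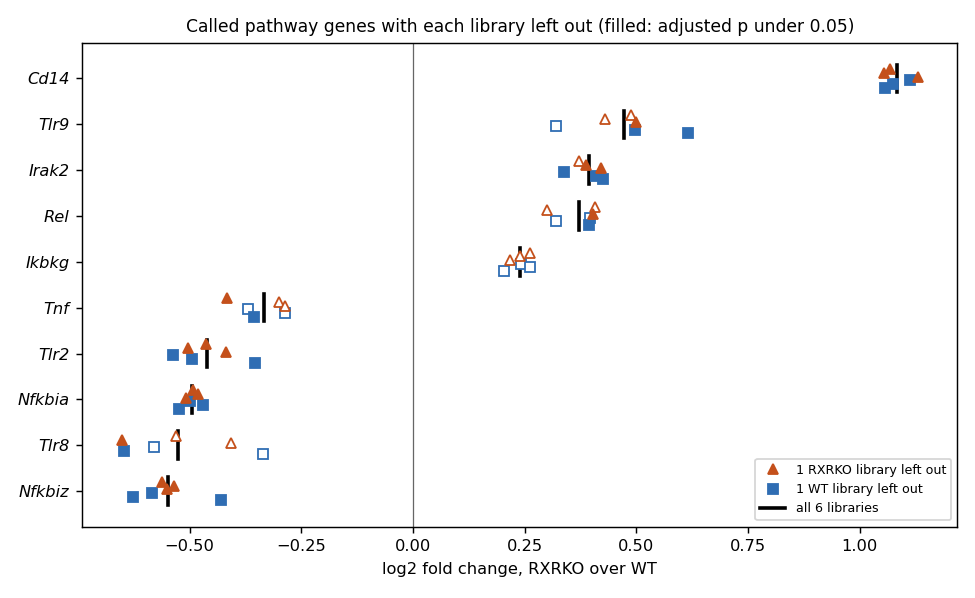
Log2 fold change of RXRKO over WT for the 10 called genes in the fit of all 6 libraries (black line) and with each library left out in turn (triangles for RXRKO, squares for WT), filled where the edgeR adjusted p was under 0.05. Cd14, Tlr2, Nfkbia and Nfkbiz are filled in all 6 left-out fits, and Ikbkg in none.

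The firmness of the 10 calls thus fell into classes. Cd14, Tlr2, Nfkbia and Nfkbiz passed the threshold with each of the 6 libraries left out. Irak2 passed in 5 of these 6 fits, Tlr9 in 3, Tlr8, Rel and Tnf in 2, and Ikbkg in 0. Of the 5 X-linked genes of the pathway (Tlr7, Tlr8, Tlr13, Irak1 and Ikbkg), 1 was called higher and 1 lower, and 17.4% of all 385 tested X-linked genes were called. Without the X-linked genes 4 of 37 were called higher and 4 lower, or 21.6%, against 19.4% of all tested genes. For these 37 too, sex composition and genotype cannot be told apart.

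Genes that work with the pathway but are not among the 42 were counted in 5 lists. The lists were chosen with earlier results of these data known. The shares called and the medians given here and below for each list are therefore descriptive and carry no test. Of their 100 genes found, 88 were tested, 19 were called higher and 5 lower in RXRKO cells. That is 27.3% called, where 9.77% of all tested genes were called higher and 9.61% lower, and the median log2 fold change was 0.14, against -0.0048 for all tested genes. Among 13 tested receptor cofactors, 2 were higher and 1 lower. Unc93b1, the chaperone that carries TLR7, TLR9 and TLR13 to endosomes, had 1351 ± 23.7 CPM in RXRKO cells and 1011 ± 62.5 CPM in WT cells (SD, n = 3 each), a log2 fold change of 0.42 with an edgeR adjusted p of 0.0024. Slc15a3, an endosomal transporter of peptides and histidine, had 283 ± 31.4 CPM in RXRKO cells and 198 ± 33.2 CPM in WT cells, a log2 fold change of 0.52 with an edgeR adjusted p of 0.0081 that became 0.0722 without WT replicate 1. Cd36, a lipid scavenger receptor that assists TLR2, had 2263 ± 208 CPM in RXRKO cells and 3876 ± 299 CPM in WT cells, and its log2 fold change was -0.78 with an edgeR adjusted p of 8.3e-05. Cd36 is also a known target of PPAR gamma, a partner of RXR. Cd36 was thus lower, as was Tlr2. Unc93b1 was higher, but the endosomal receptor genes had no common direction: Tlr9 was higher, Tlr8 was lower, and Tlr7 and Tlr13 were not called.

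Of 10 genes of the interferon regulatory branch, which TRIF and endosomal TLRs also feed, 4 were higher and none lower, against 9.77% higher and 9.61% lower of all tested genes. Ikbke, a kinase that activates IRF3, had 103, 96.0 and 116 CPM in RXRKO cells, against 47.0, 55.4 and 64.0 CPM in WT cells. Its groups were clearly separate, with a log2 fold change of 0.92 (SE 0.116) and an edgeR adjusted p of 0.00014. Irf8, a transcription factor of the myeloid lineage, had 283 ± 15.3 CPM in RXRKO cells and 183 ± 4.94 CPM in WT cells (SD, n = 3 each). Its log2 fold change was 0.63 (edgeR adjusted p = 0.00012). Of 22 further adaptors and ubiquitin enzymes, 4 were higher and 1 lower. Peli2, a ubiquitin ligase of the IRAK complex, had 19.3 ± 2.33 CPM in RXRKO cells and 10.3 ± 0.609 CPM in WT cells, a log2 fold change of 0.90 (edgeR adjusted p = 0.00044). Malt1, a protease that links other receptors to NF-kB, had 63.0 ± 8.72 CPM in RXRKO cells and 43.4 ± 1.55 CPM in WT cells, a log2 fold change of 0.54 (edgeR adjusted p = 0.0036). Map3k8, the kinase TPL2 that is held by the Nfkb1 precursor, had 19.0 ± 0.917 CPM in RXRKO cells and 26.6 ± 3.90 CPM in WT cells. Its log2 fold change was -0.50 (edgeR adjusted p = 0.0125), and thinning all libraries to the smallest total gave an adjusted p of 0.0915.

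Of 22 further brakes on the pathway, 3 were higher and 1 lower in RXRKO cells. That is 18.2% called, against 19.4% of all tested genes (9.77% higher and 9.61% lower). Il1rl1, the decoy and receptor ST2 that can sequester TLR adaptors, had 5.12, 6.87 and 5.92 CPM in RXRKO cells, against 1.25, 1.30 and 1.50 CPM in WT cells. The log2 fold change was 2.12 (SE 0.234, edgeR adjusted p = 4.8e-05). Tifab, a binding partner of the TRAF6 regulator TIFA, had 145 ± 8.93 CPM in RXRKO cells and 83.4 ± 2.81 CPM in WT cells, a log2 fold change of 0.80 (edgeR adjusted p = 2.7e-05). Nfkbid, also called higher, had 46.8 ± 4.12 CPM in RXRKO cells and 33.2 ± 2.41 CPM in WT cells. Its log2 fold change was 0.50 (edgeR adjusted p = 0.0045). Tnip3, an A20-binding protein related to Tnip1, had 115 ± 18.0 CPM in RXRKO cells and 191 ± 22.1 CPM in WT cells (SD, n = 3 each), a log2 fold change of -0.73 (edgeR adjusted p = 0.00091).

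Of 29 NF-kB target genes other than those above, 21 were expressed highly enough to be tested. Of these 21, 6 were higher and 2 lower, or 38.1% called. Of all tested genes 19.4% were called (9.77% higher and 9.61% lower). The median log2 fold change of the 21 was 0.07, and the median absolute value was 0.30, against 0.12 for the pathway. Ccl2, which attracts monocytes, had 17.0, 17.5 and 15.8 CPM in RXRKO cells, against 5.08, 5.09 and 4.11 CPM in WT cells. Ccl4, another chemokine gene, had 75.0, 72.3 and 74.4 CPM in RXRKO cells, against 30.7, 31.0 and 26.1 CPM in WT cells. The log2 fold changes were 1.84 for Ccl2 (SE 0.147, edgeR adjusted p = 3.6e-06) and 1.34 for Ccl4 (SE 0.0962, edgeR adjusted p = 1.4e-06). The adhesion genes went the other way. Vcam1 had 3.26, 2.26 and 2.61 CPM in RXRKO cells, against 17.0, 18.4 and 17.8 CPM in WT cells, a log2 fold change of -2.72 with an SE of 0.164 (edgeR adjusted p = 2.7e-07). Icam1 had 81.9, 83.7 and 74.4 CPM in RXRKO cells, against 117, 139.9 and 146 CPM in WT cells, a log2 fold change of -0.75 with an SE of 0.0971 (edgeR adjusted p = 0.00017). Targets of NF-kB thus stood on both sides, Ccl2 and Ccl4 above their WT levels and Vcam1, Icam1, Tnf and Nfkbia below them.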

How the data were processed

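Poly-A RNA of 3 RXRKO and 3 WT macrophage cultures was read single-end, as the labels' protocols state. Per the submitters' processing notes, the tools were TopHat2 2.0.7 and DESeq, with the build mm10 (GRCm38). The counting program, annotation release and strand setting were not given in the sources used here. The authors deposited raw counts per Ensembl gene, whole numbers that entered the main tests. The authors also deposited normalized log2 values, the log2 of the count plus a constant for each library, which entered 1 alternative.

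All 6 libraries entered 1 fit in edgeR 4.0.16 under R 4.3.3 (robust quasi-likelihood F test, TMM, filterByExpr with minimum count 10 and minimum total 15), with genotype as the sole term. The Benjamini-Hochberg adjustment ran over 12011 genes, and genes under 0.05 were called. SEs were derived from the F statistic and so restate the test. The code was tested on simulated data. Of 45193 genes, 45106 had a symbol under their Ensembl identifier, and exon lengths, GC content and overlaps came from GENCODE M21 on GRCm38.

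The 42 members and all lists were chosen with earlier results of these data known. Every member is accounted for. Of each other pathway list, up to 2 genes called higher and 2 called lower with the smallest adjusted p were named, and of each marker list the most abundant gene. Siglech, Klk1, Gzma, the haemoglobin genes, Tmed7, G6pdx, Acaa1a and Nfkbid were named outside this rule after their values were seen. Alternatives were RLE factors, upper-quartile factors, either no filter or CPM of at least 1 in 3 libraries, DESeq2 1.42.0, limma-voom with limma 3.58.1, limma on log2(x + 1) of the authors' values returned to the linear scale, the replicate number as a block, thinning to 7880320 counts, and leaving out each library. Offsets for gene length and GC content were added after seeing the data.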

Additional observations from a re-analysis of the deposited data

How the results depend on the processing

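Counts of calls stayed within 1.5 times the values reported under RLE and upper-quartile factors, both filters, DESeq2, limma-voom, limma on the authors' values and thinning. The no-filter fit moved the median log2 fold change of all genes to 0.12. With the length and GC offsets 3 pathway genes were called lower. Leaving out 1 library gave 667 to 1278 genes called higher and 619 to 1329 called lower over all genes, 1 to 4 called higher and 3 to 5 called lower in the pathway. All genes called higher numbered 667 without WT replicate 1 and 697 without RXRKO replicate 1, and those called lower 619 and 686. Pathway genes called higher numbered 1 without RXRKO replicate 1, 2 without WT replicate 1 or RXRKO replicate 2, and 3 without WT replicate 2. Those called lower numbered 3 without WT replicate 1 or RXRKO replicate 3. The cause was not tested, though fewer libraries enter these fits.

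Deviations of same-numbered libraries from their group means correlated at 0.05, -0.28 and -0.26. For differently numbered libraries the correlations ran from -0.11 to 0.31, the highest for RXRKO replicate 3 with WT replicate 2. RXRKO replicate 2 with WT replicate 3 gave 0.25. These values cannot settle whether libraries were handled in pairs, under these or other numbers. A fit with the replicate block called 709 genes higher and 666 lower over all genes, and 3 higher and 3 lower in the pathway. The pathway genes not called there were Tlr8 (adjusted p = 0.101), Tnf (0.101), Rel (0.0859) and Ikbkg (0.173), and of the other genes named Map3k8 (0.0538).

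Directions that turned belonged to genes not called in any of these fits. With thinning the log2 fold change was 0.032 for Tlr4, 0.0021 for Tlr7, -0.036 for Irak3, -0.048 for Traf2 and 0.045 for Tnfaip3. With the offsets it was 0.033 for Tlr4, 0.063 for Tlr7, -0.0085 for Traf2 and -0.18 for Ikbkb. With libraries left out it ran from -0.018 to 0.24 for Tlr1, -0.12 to 0.10 for Tlr4, -0.17 to 0.11 for Tlr7, -0.10 to 0.024 for Ticam1 and -0.055 to 0.15 for Irak3. It ran from -0.010 to 0.044 for Irak4, -0.039 to 0.073 for Traf2, -0.030 to 0.15 for Birc3, -0.061 to 0.039 for Nfkb1 and -0.11 to 0.039 for Nfkb2. For Rela it ran from -0.012 to 0.12, for Relb from -0.22 to 0.0026 and for Tnfaip3 from -0.18 to 0.11. Over the 42 genes and all settings, 604 values kept direction and side of the threshold, 31 lost a call, 3 gained one and 34 turned. The WT libraries were the less deeply sequenced. With all libraries thinned to the smallest total the pathway had 5 genes called higher and 5 lower. Thinning evens the read totals alone, and the part of other differences between the libraries was not tested.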
